A study of Mus musculus with 20 samples.

Results

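Interleukin-1, tumor necrosis factor (TNF) and related cytokines were examined as 8 genes: Il1a, Il1b, Il1rn, Il1r2, Tnf, Il6, Il10 and Il18. They were chosen by name, and all 8 were listed among the 15855 genes of the cultured cells and among the 15333 genes of the tumor cells. The single-cell RNA sequencing (scRNA-seq) data held 2 libraries of B-MF, macrophages grown from B cells of the bone marrow (BM) of naïve mice, and 2 libraries of Mo-MF, macrophages grown from monocytes. The B cells were sorted to lack markers of other lineages, CD11b, Ly6C and Ly6G included. Both cell types were cultured for a week in medium conditioned by 4T1.2 cells, a mouse mammary cancer line, and no culture without cancer medium was analysed here. A further 4 libraries held cells sorted as tumor-associated macrophages (TAM) from mice with 4T1.2 cancer, without a normal tissue beside them. They are called tumor libraries 2 to 5, the numbers in the data, which could not be matched to single mice. The assay for transposase-accessible chromatin (ATAC-seq) was run on cells of BM and of spleen that did (CSF1R+) or did not (CSF1R-) carry the receptor for CSF1, with 3 libraries in each of the 4 groups. The study describes these as B-cell precursors of naïve mice, while the sample labels call them macrophages. The study used young female mice, and neither the strain of each library nor the animals behind the culture replicates were given. P-values therefore measure the spread between libraries, which may be technical.

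Interleukin-1 is made in 2 forms, IL-1α and IL-1β, which signal through the same receptor and are among the first signals of inflammation. The receptor antagonist encoded by Il1rn occupies that receptor without signaling, and the decoy receptor encoded by Il1r2 binds IL-1 without passing a signal on. IL-1β and IL-18 are made as precursors that are cut by caspase-1 in the inflammasome, whereas TNF is made as a membrane protein and shed by the protease ADAM17. IL-6 is an inflammatory cytokine made by stromal and myeloid cells, and IL-10 restrains macrophage activation. Myeloid cells, neutrophils included, are a major source of IL-1β, and neutrophils carry much of the decoy receptor.

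Il1a and Il1b lie side by side on chromosome 2 of GRCm38, at chr2:129299610-129309972 and chr2:129364570-129371139, both on the minus strand. Il1rn is on the plus strand of the same chromosome, at chr2:24336853-24351494. Il1r2 spans chr1:40074079-40125231 and Il10 spans chr1:131019845-131024974, both on the plus strand. Tnf is at chr17:35199381-35202007 on the minus strand, Il6 at chr5:30013114-30019981 and Il18 at chr9:50554827-50581840 on the plus strand. The promoter sequences below are the 150 bases before the start of each gene in RefSeq (GRCm38.p6), written from 5′ to 3′ on the strand of the gene. Promoters of 7 of the 8 genes were searched, and that of Il10 was not. The sequences are those in which a searched motif was found: those of Il1a, Il1b and Tnf each hold a TATA box (TATAAA, searched on both strands), in capitals, a motif found in 7.57% of 32851 RefSeq promoters of that length. The Il6 promoter lacked it and held 1 kappa-B motif (in 4.6% of promoters) and, on the other strand, 1 C/EBP motif (TTGCNNAA, in 5.46%), both in capitals.

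Il1a promoter, chr2:129309973-129310122: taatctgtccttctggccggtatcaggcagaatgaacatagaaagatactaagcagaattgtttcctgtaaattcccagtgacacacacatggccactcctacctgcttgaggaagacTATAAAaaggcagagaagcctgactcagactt
Il1b promoter, chr2:129371140-129371289: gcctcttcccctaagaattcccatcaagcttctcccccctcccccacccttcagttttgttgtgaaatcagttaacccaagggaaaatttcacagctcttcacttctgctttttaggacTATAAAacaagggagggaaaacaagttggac
Tnf promoter, chr17:35202008-35202157: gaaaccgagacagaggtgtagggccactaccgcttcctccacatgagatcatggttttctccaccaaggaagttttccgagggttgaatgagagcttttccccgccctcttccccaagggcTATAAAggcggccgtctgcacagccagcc
Il6 promoter, chr5:30012964-30013113: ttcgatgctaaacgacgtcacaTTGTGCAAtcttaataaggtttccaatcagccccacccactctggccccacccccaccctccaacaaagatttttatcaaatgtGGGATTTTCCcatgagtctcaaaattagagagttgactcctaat

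The windows of Il1rn, Il1r2 and Il18 held none of the 4 motifs and are not printed. None of the 4 printed windows held the PU.1 motif searched (AGAGGAAGT, in 0.548% of promoters). A motif match describes letters in a window and is not a measured binding site.

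The values of both scRNA-seq tables are transcript counts that the authors corrected to a shared depth, so 1 corrected count stands for about 1 molecule at that depth. The culture and tumor tables were corrected separately, and levels are compared within each only. The 4 culture libraries held 4846 to 5389 cells and the tumor libraries 2318 to 3180, and in every library 3 to 28 cell barcodes also occurred in another library of the same table. Cells were grouped by clustering without the 8 genes and named from marker lists. Not all cells were of the labeled type. Neutrophil-like cells made up 10.3% and 9.50% of the Mo-MF libraries, against 3 cells and 0 cells in B-MF, and the 9 neutrophil markers summed to 163 and 131 corrected counts per cell in Mo-MF against 4.83 and 4.56 in B-MF. In the tumor libraries, 35.3%, 62.4%, 46.9% and 54.9% of the cells were neutrophil-like, with 443 to 784 summed neutrophil marker counts per cell beside 14.5 to 33.9 for the 9 macrophage markers. Macrophage markers summed to 294 and 283 in B-MF and to 601 and 591 in Mo-MF.

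The comparison of B-MF with Mo-MF asks how the cytokine genes differ between macrophages of B-cell and of monocyte origin. Il1b did not pass the test when all cells were averaged, and was far higher in B-MF when macrophage cells were taken alone. Over all cells the B-MF libraries had a mean of 1.30 and 1.06 corrected counts, and the Mo-MF libraries, at 1.47 and 1.22, overlapped them. The difference of -0.18 on the log2 scale (SE 0.105, n = 2 against 2) did not pass the test (adjusted p = 0.222 from limma), in which 39.5% of 8633 genes were called in either direction. Il1b counts were spread over more cells in B-MF, with 21.0% and 19.3% of the cells positive for at least 1 count against 11.9% and 10.3% in Mo-MF. In positive cells the mean was 6.22 and 5.48 counts in B-MF against 12.4 and 11.9 in Mo-MF. With B-MF replicate 1 or 2 left out the difference was -0.31 or -0.038, and with Mo-MF replicate 1 or 2 left out it was -0.054 or -0.30. The fits without B-MF replicate 1 and without Mo-MF replicate 2 passed the test.

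Among macrophage cells alone, that is without the clusters named as neutrophil-like or monocyte-like, Il1b was 13.2-fold higher in B-MF at a clustering resolution of 0.5. Its mean was 1.30 and 1.06 counts in B-MF against 0.114 and 0.0648 in Mo-MF, so that both B-MF libraries lay above both Mo-MF libraries. The difference was 2.76 on the log2 scale (SE 0.125, adjusted p = 1.28e-06 from limma, with 38.4% of 8597 genes called in either direction) and ranged from 2.57 to 2.95 when each library was left out. With monocyte-like cells kept and only neutrophil-like clusters removed it was 1.58 (SE 0.15, adjusted p = 0.000117, with 37.8% of 8601 genes called in either direction, 20.9% higher and 16.9% lower in B-MF). Of the Mo-MF counts of Il1b, 75.3% and 80.8% were in neutrophil-like cells and 17.9% and 14.5% in the 59 and 62 monocyte-like cells. Neutrophil-like cells had a mean of 10.7 and 10.4 counts and monocyte-like cells of 21.5 and 15.4. The Mo-MF macrophages thus held few counts of the gene: 3.61% and 2.56% of macrophage-like cells were positive, against 21.0% and 19.4% in B-MF. Their median corrected counts per cell were close, at 19528 and 19427 in Mo-MF and 19402 and 18350 in B-MF. Tested as a share of positive cells over all cells, where 3.61% of genes were called in either direction (1.52% higher and 2.1% lower in B-MF), Il1b was higher in B-MF by 0.81 and did not pass (adjusted p = 0.064). When each cell was thinned to 4000 counts, the positive shares over all cells were 7.81% and 6.78% in Mo-MF against 11.5% and 10.2% in B-MF, and those of macrophage-like cells averaged 1.11% in Mo-MF and 10.8% in B-MF. How much free RNA from neutrophil-like cells added to the Mo-MF macrophages was not tested. The cells taken as macrophages also depend on the clustering. At a resolution of 0.5, Mo-MF held 499 and 512 neutrophil-like and 21 and 14 unnamed cells. At a resolution of 1 they held 326 and 309 neutrophil-like and 647 and 697 unnamed cells. Unnamed cells were kept among macrophage cells alone, and the fold at a resolution of 1 was not tested.

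**Figure D1:**
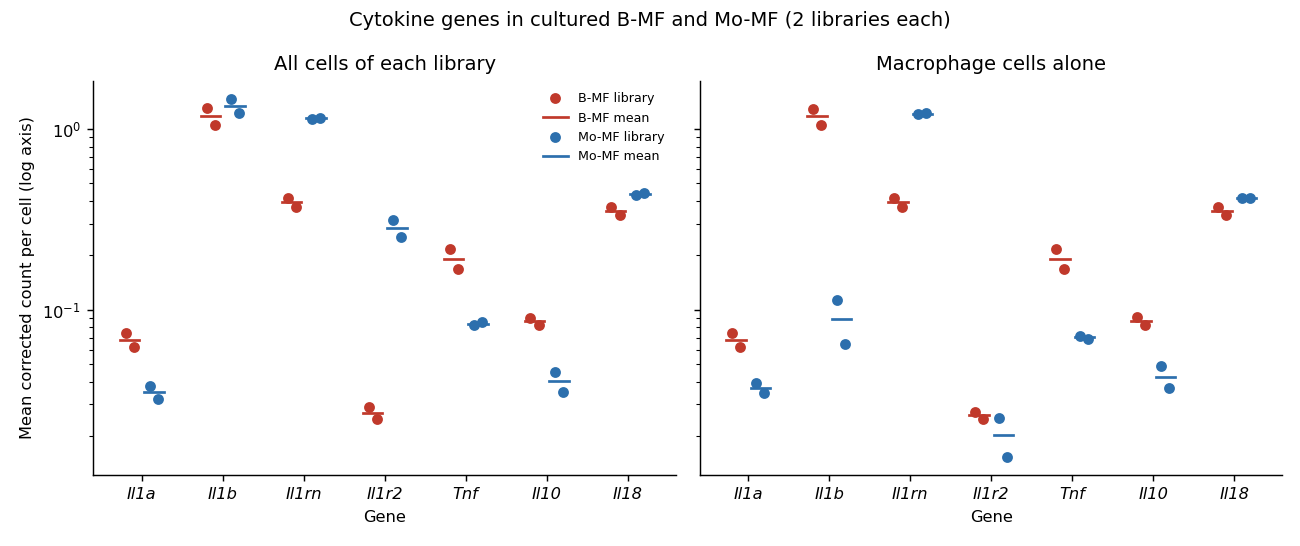
Mean corrected count per cell (log axis) of 7 cytokine genes in the 2 B-MF and 2 Mo-MF libraries, over all cells and over macrophage cells alone, with lines at the mean of the 2 libraries. Il1b of Mo-MF moves from 1.22 and 1.47 over all cells to 0.0648 and 0.114 in macrophage cells, while B-MF stay at 1.06 and 1.30. Il6 is not drawn because it was at 0 in 1 library.

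Il1a, which encodes IL-1α, was low in all cultures and did not reach the mean of 0.1 required for the main fit. Its mean was 0.0747 and 0.0620 in B-MF against 0.0380 and 0.0321 in Mo-MF, 1.95-fold higher in B-MF with no overlap of the libraries. In the fit without the filter, which called 23.1% of 15855 genes in either direction (12.1% higher and 11% lower in B-MF), the difference was 0.32 (SE 0.051, adjusted p = 0.0335), and leaving out B-MF replicate 1, Mo-MF replicate 1 or Mo-MF replicate 2 gave an adjusted p of 0.0603, 0.235 or 0.266. At least 1 count was found in 5.54% and 4.43% of B-MF cells and in 3.1% and 2.91% of Mo-MF cells.

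Il1rn, the receptor antagonist, went the other way. Its mean was 0.417 and 0.371 in B-MF against 1.14 and 1.16 in Mo-MF, 2.92-fold higher in Mo-MF, and the libraries did not overlap. The log2 difference was -1.34 (SE 0.059, adjusted p = 1.12e-06), and it was -1.42 (SE 0.059, adjusted p = 7.99e-07) in macrophage cells alone. In these 2 fits, 16.9% of 8633 genes and 17.0% of 8597 genes were called lower in B-MF. The Mo-MF macrophages led by Arg1, Fn1 and Itgax (cluster 3, 2800 cells) had the highest Il1rn mean of the macrophage clusters, 1.94 counts with 46.6% positive cells, and held 34.1% of all Il1rn counts of the cultures. The cluster led by Ly6a and Ccl7 followed with 1.43. The 2 large B-MF clusters, one led by Egr1 and one by Myc, had 0.264 and 0.501. Cluster 2, a macrophage cluster of 3193 cells, lay between these at 0.455 with 16.1% positive cells. The higher Il1rn was therefore not shared by all macrophage clusters outside the 2 large B-MF clusters. The highest mean of all clusters, 10.7, belonged to the 21 fibroblast-like cells, of which 11 and 9 were in the B-MF libraries.

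Antagonist and agonist were thus in different proportion in the 2 kinds of macrophage. Per 100 counts of Il1b there were 30.2 and 33.5 counts of Il1rn in the macrophage-like cells of B-MF and 1077 and 2001 in those of Mo-MF. Over all cells the values were 32.0 and 35.1 in B-MF against 77.9 and 94.4 in Mo-MF. These ratios are of counts at the 3′ ends of transcripts, which are not scaled by gene length and are not a ratio of proteins.

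Il1r2, the decoy receptor, was 10.5-fold higher in Mo-MF over all cells, and most of its Mo-MF counts lay in neutrophil-like cells. Its mean was 0.0290 and 0.0250 in B-MF against 0.313 and 0.253 in Mo-MF, and the 2 differed by -1.59 on the log2 scale (SE 0.076, adjusted p = 1.81e-06). The neutrophil-like cells held 84.9% and 86.4% of the Mo-MF counts. Among macrophage cells alone the mean was 0.0271 and 0.0250 in B-MF against 0.0252 and 0.0154 in Mo-MF, below the filter, and the difference was 0.07 (SE 0.049, adjusted p = 0.436 without the filter). The call for Il1r2 therefore did not hold in macrophage cells.

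Tnf was higher in B-MF with and without the neutrophil-like cells. Its mean was 0.216 and 0.167 in B-MF against 0.0823 and 0.0852 in Mo-MF, 2.29-fold higher in B-MF. The log2 difference was 0.66 (SE 0.078, adjusted p = 0.000319) over all cells, where 22.6% of genes were called higher in B-MF, and 0.77 (SE 0.078, adjusted p = 0.000132) in macrophage cells alone, where 21.4% were. Positive cells made up 14.3% and 12% of B-MF and 7.08% and 6.57% of Mo-MF, and tested as a share of positive cells Tnf did not pass (0.85, adjusted p = 0.0740). Within B-MF, Tnf was 0.246 in the cluster led by Myc, 0.135 in that led by Egr1 and 0.592 in a cluster of 184 cells led by genes of major histocompatibility complex (MHC) class II. The cluster led by Ly6a and Ccl7 had 0.135 as well, and culture clusters 2 and 3 had 0.0247 and 0.0689. The MHC class II cluster also had the highest Il1b of the macrophage clusters, with 4.16 and 4.30 counts in its cells from the 2 B-MF libraries.

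Il10, the restraining cytokine, was 2.15-fold higher in B-MF, at 0.0907 and 0.0822 against 0.0452 and 0.0353 in Mo-MF, below the filter of the main fit. The fit without the filter gave 0.41 (SE 0.050, adjusted p = 0.0187), and the adjusted p was 0.0538 to 0.163 when each library in turn was left out. Of all Il10 counts in the cultures, 46.1% were in the B-MF cluster led by Egr1. The Il10 mean was 0.0762 in the cluster led by Ly6a and Ccl7, above 0.0618 in the B-MF cluster led by Myc. In culture clusters 2 and 3 it was 0.0266 and 0.0357. Il18 was near the same level in all libraries, at 0.373 and 0.335 in B-MF against 0.433 and 0.442 in Mo-MF. Its small difference of -0.24 (SE 0.058, adjusted p = 0.0111) passed the test, was -0.19 (SE 0.057, adjusted p = 0.0340) in macrophage cells alone, and did not pass without Mo-MF replicate 2 (-0.23, adjusted p = 0.0798). In macrophage cells alone it did not pass without Mo-MF replicate 1 (adjusted p = 0.210) or 2 (adjusted p = 0.160). The 121 monocyte-like cells had the highest Il18 of the cultures, 1.41 counts with 66.1% positive cells. Il6 was rarely detected: 5, 0, 8 and 7 cells of the 4 libraries had a count, and 0 of 5326 cells in B-MF replicate 2 allows a share of cells with a count of up to 0.0563% (3 counts of the total), which does not limit the share of cells that express the gene. The fit without the filter gave -0.030 for Il6 (SE 0.016, adjusted p = 0.313). An unnamed cluster of 45 cells led by Igkc, Prss34 and Mcpt8, genes of plasma cells and basophils, held 83.9% of the Il6 counts, with 15 positive cells.

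**Figure D2:**
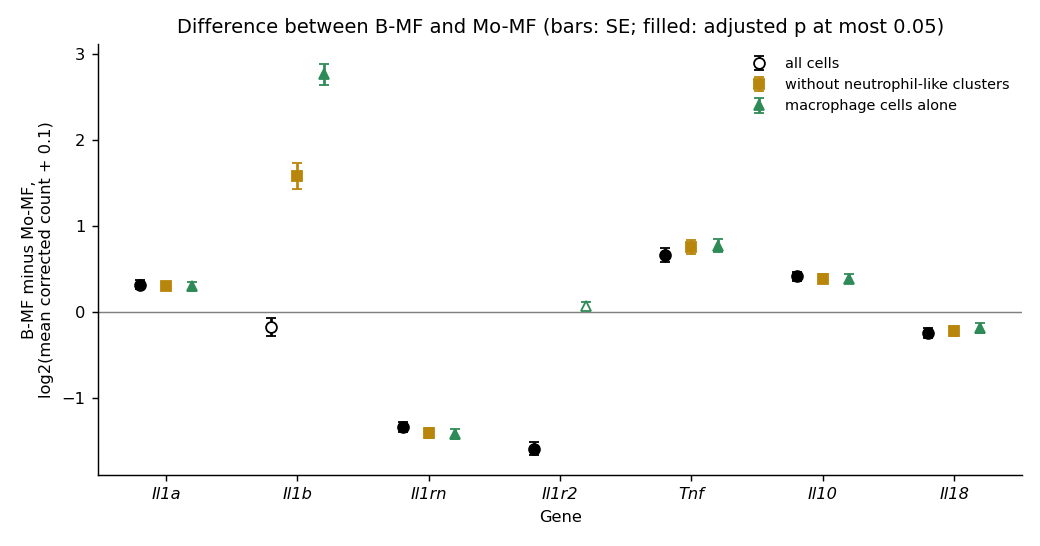
Difference of B-MF minus Mo-MF in log2(mean corrected count + 0.1) for 7 cytokine genes over all cells, without the neutrophil-like clusters and over macrophage cells alone, with bars of 1 SE and filled symbols at an adjusted p of at most 0.05. Il1b moves from -0.18 through 1.58 to 2.76, and Il1r2 from -1.59 to 0.07, while Il1a, Il1rn, Tnf, Il10 and Il18 keep their place. Il1a, Il10 and the macrophage value of Il1r2 come from fits without the filter on low values, and Il1r2 without the neutrophil-like clusters was under the filter.

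The other genes of these pathways were taken from 80 listed names in 7 roles, of which 70 were in the culture table and 54 passed the filter. Of these, 14 were higher and 12 lower in B-MF, beside 22.6% higher and 16.9% lower over all 8633 genes, and their median log2 difference was 0.01, against 0.02 over all genes. The list of subunits and feedback inhibitors of NF-κB, the transcription factor that IL-1 and TNF signal to, was the largest group tested, and of its genes 10 of 15 were higher and 1, Tnip1, lower (-0.53, SE 0.063, named after its value was seen), with a median of 0.28, and the same 10 were higher in macrophage cells alone, where 21.4% of all genes were. Zfp36, which shortens the life of cytokine mRNAs, was 8.72 and 8.51 in B-MF against 4.28 and 4.26 in Mo-MF (log2 difference 1.0, SE 0.050, adjusted p = 2.32e-06). Nfkbiz, an atypical inhibitor that also activates some targets, differed by 0.67 (SE 0.072, adjusted p = 0.000193), and Nfkbid by 0.61 (SE 0.071, adjusted p = 0.000295). In macrophage cells alone the differences were 1.18 for Zfp36, 1.13 for Nfkbiz and 0.75 for Nfkbid. There 18 of 53 tested pathway genes were higher and 9 lower.

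In the inflammasome and processing group, 1 of 7 tested genes was higher and 3 were lower over all cells (22.6% and 16.9% of all genes), and 1 was higher and 2 were lower in macrophage cells alone (21.4% and 17.0% of all genes), where Adam17 (-0.10, adjusted p = 0.136) did not pass. Adam17, Birc3, Tab2, Stat3 and Ebi3 are named because their calls differed between the fits, a choice made after their values were seen. Nlrp3, a sensor of the inflammasome, was 0.677 and 0.589 in B-MF against 0.325 and 0.297 in Mo-MF (log2 difference 0.83, SE 0.070, adjusted p = 4.37e-05, and 1.17 in macrophage cells alone), while Casp1, which cuts the IL-1β precursor, was slightly lower (-0.17, SE 0.050, adjusted p = 0.0307), as was the DNA sensor Aim2 (-0.23, SE 0.055, adjusted p = 0.0108). Of the receptors and binders of IL-1 and IL-18 only Il18bp, which neutralizes IL-18, passed the filter, and it was lower in B-MF (-0.67, SE 0.067, adjusted p = 0.000125). The signaling receptor Il1r1 was at 0.00357 to 0.00949 in the 4 culture libraries. Among TNF receptors and signaling genes, 3 of 9 were lower and none was higher over all cells, while in macrophage cells alone 2 of 8 were lower and 1, Birc3, was higher (0.30, SE 0.074, adjusted p = 0.0137), beside the same shares of all genes. Tnfrsf1b, a TNF receptor, was 1.22 and 1.20 in B-MF against 2.24 and 2.17 in Mo-MF (-0.81, SE 0.051, adjusted p = 7.69e-06), and Traf1, an adaptor, differed by -0.54 (SE 0.062, adjusted p = 0.000299). Ltb, a TNF family cytokine, differed by -1.87 (SE 0.058, adjusted p = 1.96e-07) over all cells and was under the filter in macrophage cells alone.

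The counts of the next 3 groups stand beside 22.6% higher and 16.9% lower of all genes over all cells. In macrophage cells alone these shares were 21.4% and 17.0%. Of 9 signal adaptors tested, Irak1 (-0.32, SE 0.050, adjusted p = 0.00154) and Tollip (-0.26, SE 0.060, adjusted p = 0.0102) were lower in B-MF. The other 7 did not pass, of which Tab2 was higher in macrophage cells alone (0.18, SE 0.051, adjusted p = 0.0230). Of 10 receptor and signaling genes of IL-6 and IL-10, Socs3, a feedback inhibitor, was higher (0.43, SE 0.079, adjusted p = 0.00327, and 0.92 in macrophage cells alone), and Bcl3 (-0.24, SE 0.072, adjusted p = 0.0320) and the receptor gene Il10rb (-0.15, SE 0.050, adjusted p = 0.0402) were lower. In macrophage cells alone Bcl3 did not pass, Il10rb was lower (-0.19, adjusted p = 0.0202) and Stat3, the transcription factor downstream of both receptors, was higher (0.18, SE 0.049, adjusted p = 0.0198). Of the other cytokines, 3 of 14 listed passed the filter. Osm, which encodes the IL-6 family cytokine oncostatin M, was 1.39 and 1.20 in B-MF against 0.555 and 0.490 in Mo-MF (1.16, SE 0.079, adjusted p = 1.33e-05), and Il15 was also higher (0.32, SE 0.059, adjusted p = 0.00331). In macrophage cells alone these differed by 1.49 and 0.42, and Ebi3, a subunit of IL-27, was higher as well (0.29, SE 0.061, adjusted p = 0.00682).

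In the tumor, nearly every cell held at least 1 count of Il1b, which cannot be read as expression by every cell (B-like cells were 76.4% positive). Tumor libraries 2 to 5 averaged 60.4, 52.4, 56.8 and 62.0 corrected counts of it in a cell, and 93.4% to 94.3% of the cells were positive. Il1rn was at 5.68, 4.09, 5.68 and 4.94, and Il1r2 at 4.70, 6.67, 5.25 and 6.03. Il1a was at 2.61, 1.22, 2.06 and 1.61, Tnf at 1.25, 0.572, 1.21 and 0.844, and Il18 at 0.510, 0.351, 0.505 and 0.539. Il10 was at 0.132, 0.0401, 0.0796 and 0.0663, and Il6 at 0.0428, 0.0255, 0.0344 and 0.0220. Tumor library 3, which had the highest share of neutrophil-like cells, had the lowest mean of Il1a, Il1b, Il1rn, Tnf, Il10 and Il18 and the highest of Il1r2. Library 2, with the lowest share of neutrophil-like cells, had the highest Il1a, Tnf, Il6 and Il10 and the lowest Il1r2. The median number of detected genes per cell was also lowest in library 3 (1566) and highest in library 2 (2148). What part the cell make-up or the detected genes had in these means was not tested.

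Neutrophil-like cells, 35.3% to 62.4% of the cells, held a large part of the cytokine transcripts in the tumor libraries. Over the 4 libraries they held 47.7% to 76.6% of the Il1b counts, 45.3% to 74.6% of Il1rn, 68.7% to 85.5% of Il1r2, 43.8% to 67.5% of Tnf, 40.8% to 63.1% of Il18 and 30.8% to 57.6% of Il1a. Of Il10 they held 2.15% to 19.4% and of Il6 at most 0.735% of the counts, which lay mainly in monocyte/macrophage-like cells. For Il1a and Il18 their share of the counts was near their share of the cells. Per cell, Il1a averaged 1.12 to 2.27 counts in neutrophil-like and 1.55 to 3.11 in monocyte/macrophage-like cells. Il18 averaged 0.339 to 0.620 against 0.413 to 0.540. For Tnf the values were 0.619 to 1.55 against 0.536 to 1.11, ranges that overlap. These classes were rebuilt from the same cells, so the shares are given as a description.

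**Figure D3:**
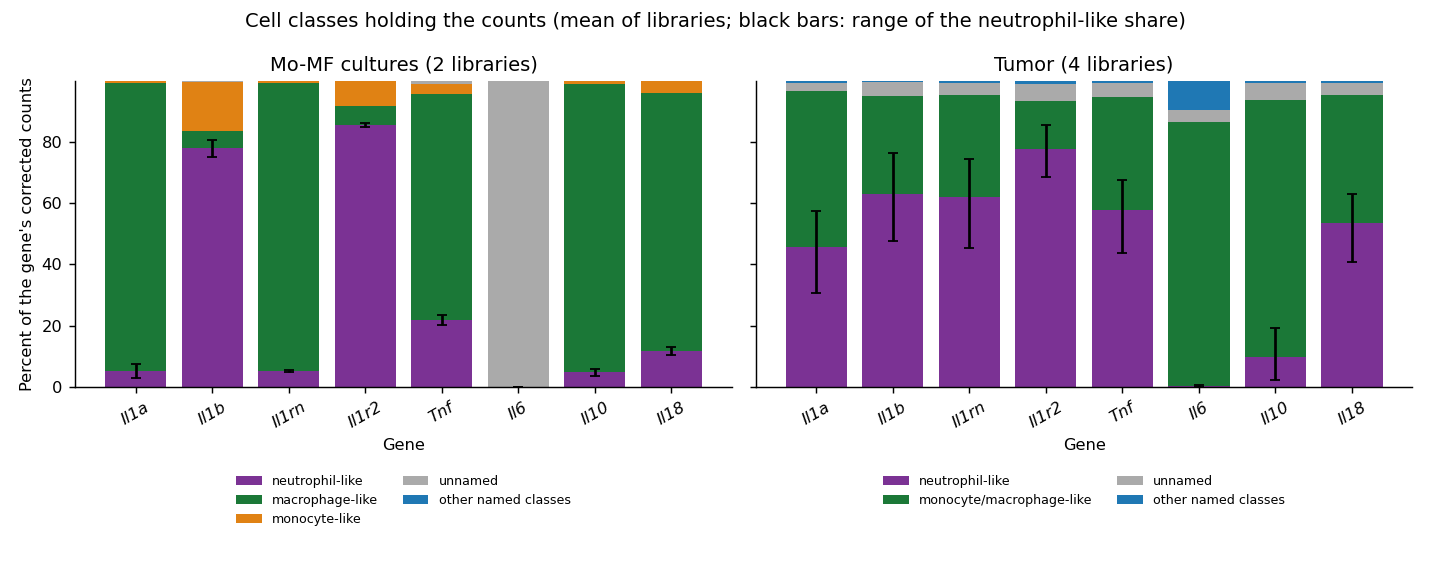
Percent of the corrected counts of each cytokine gene held by cell classes in the Mo-MF cultures (mean of 2 libraries) and in the tumor (mean of 4 libraries), with black bars for the range of the neutrophil-like share. In the tumor that share averages 77.7% for Il1r2 and 0.184% for Il6, and in Mo-MF 85.6% for Il1r2 and 78% for Il1b.

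Il1b differed widely among the clusters of 1 class. The neutrophil-like cluster led by Isg15 and Acod1 (cluster 1, 1796 cells) had 110, 120, 105 and 110 counts per cell in libraries 2 to 5, above every other cluster in each library. The neutrophil-like cluster led by Steap4 and Cxcr2 (cluster 4) had 82.4 to 91.3, the one led by Ciart and Ddit3 (cluster 0) 44.5 to 51.4, and the one led by Ngp and Camp (cluster 8), genes of neutrophil granules made early in maturation, 19.1 to 32.8. Among monocyte/macrophage-like cells, the cluster led by Sdc1 and Thbs1 (cluster 2) had 45.3 to 76.3, and the one led by Arg1 and Pf4 (cluster 3) 45.6 to 64.1. The cluster led by Tmem176b and Ccr2 (cluster 5) had 20.6 to 32.1 and the cycling one led by C1qc (cluster 6) 13.5 to 26.4. The 72 cells led by Ctsk and Acp5 (cluster 12), genes of bone-resorbing cells, had 0.296 to 1.5, with 11.1% positive. The B-like cells of cluster 9 were taken to lack the gene, which was not tested. They had 4.11 to 7.19 counts in 3 libraries and 76.4% were positive, so a positive share of that size cannot be read as expression. The 31 cells of cluster 13, also B-like, were 25.8% positive. Free RNA and doublets in the tumor were not measured. The T/NK-like cells had 3.68 to 9.15 counts with 38.8% positive.

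**Figure D4:**
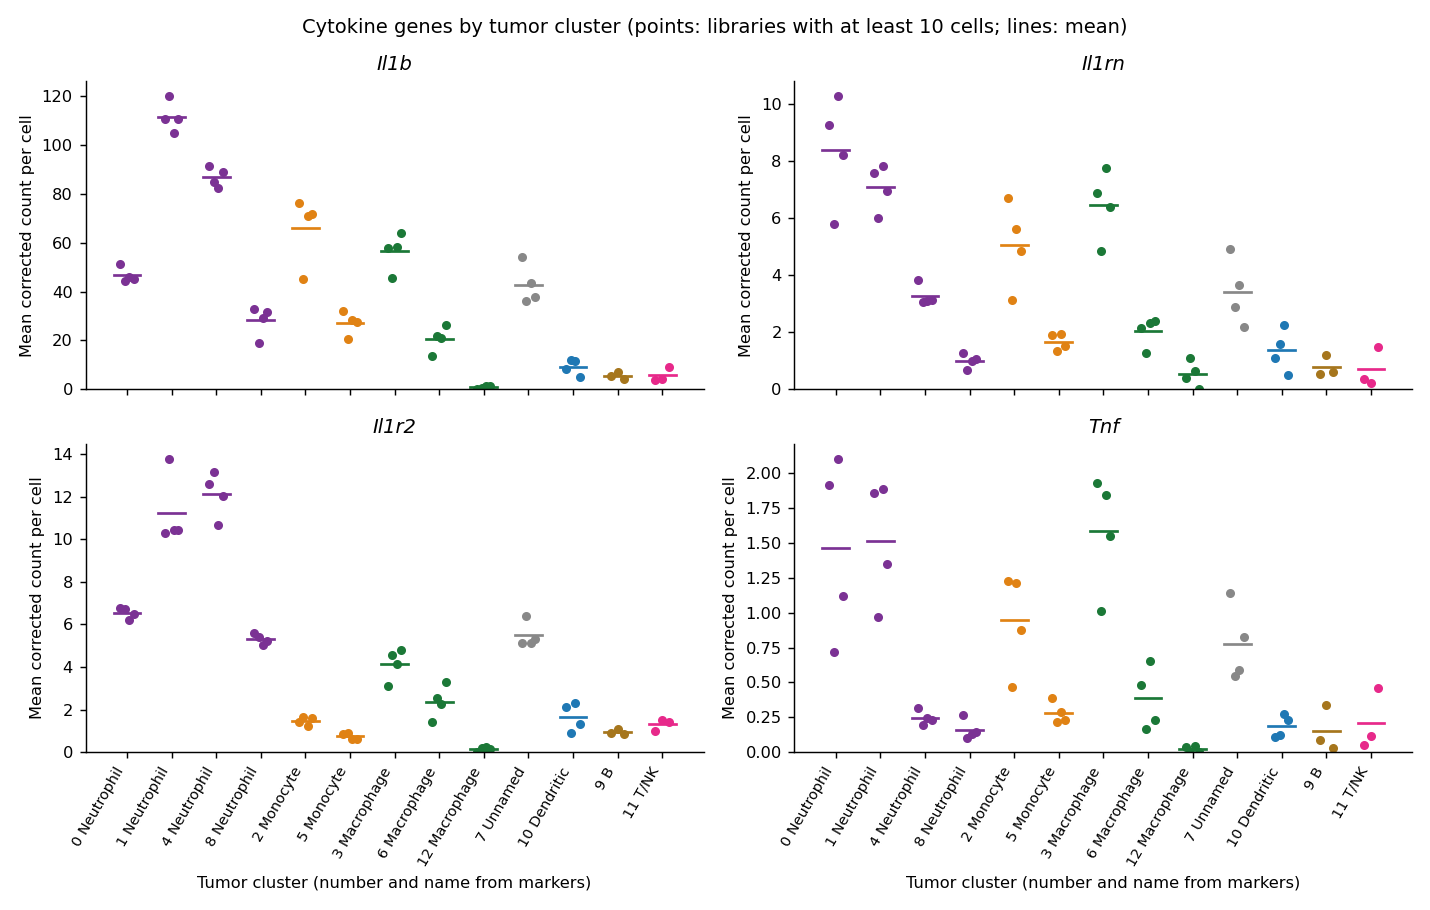
Mean corrected count per cell of Il1b, Il1rn, Il1r2 and Tnf in tumor clusters, with 1 point per library holding at least 10 cells of the cluster and lines at the mean of these libraries. Il1b is highest in cluster 1 (neutrophil-like, 105 to 120) and lowest in cluster 12 (macrophage-like, 0.296 to 1.5), and Tnf is low in neutrophil-like clusters 4 and 8. The 2 clusters with at least 10 cells in only 1 or 2 libraries are not drawn.

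The other members divided the same clusters in other ways. Il1r2 was highest in neutrophil-like clusters 4 and 1, with 12.1 and 11 counts per cell, and positive in 91.5% to 97.2% of the cells of the 4 neutrophil-like clusters. It was 4.0 in the Arg1 cluster and 1.47 and 0.745 in the monocyte-like clusters 2 and 5. The B-like cluster 9 had 0.995, the T/NK-like cluster 11 had 1.55 and the macrophage-like cluster 12 had 0.125. Values like those of clusters 2 and 5 were not taken as evidence of expression by the cells, which was not tested. Il1rn was highest in clusters 0, 1 and 3, with 7.95, 7.16 and 6.61, and was 3.24 and 0.957 in neutrophil-like clusters 4 and 8, where Il1r2 was high. Tnf was 1.66, 1.54 and 1.31 in clusters 3, 1 and 0, and 0.241 and 0.142 in clusters 4 and 8. Il1a was highest in the monocyte/macrophage-like clusters 2 and 3, with 4.19 and 3.77, and positive in 50.6% and 51.9% of their cells. Il18 was highest in clusters 2 and 1, with 0.769 and 0.757.

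Il10 and Il6 were held mainly by cells outside the neutrophil-like clusters. Il10 was 0.248 and 0.225 in clusters 2 and 3, which held 38.2% and 32.6% of its counts, and at most 0.014 in the 4 neutrophil-like clusters. Il6 was 0.149 in cluster 3, which held 56.6% of its counts with 5.36% positive cells, and 0.0548 in cluster 2, which held 22.2%. The 104 dendritic-like cells had 0.163 with 8.65% positive, and the 18 fibroblast-like cells had 0.944 with 27.8% positive.

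The proportion of antagonist to Il1b did not separate the 2 tumor classes. Per 100 Il1b counts, there were 7.82 to 10.1 Il1rn counts in monocyte/macrophage-like cells and 7.59 to 9.98 in neutrophil-like cells, and these ranges overlap. The ranges of Il1r2 did not overlap, with 3.62 to 7.02 counts per 100 Il1b counts in monocyte/macrophage-like cells and 11.2 to 14.2 in neutrophil-like cells. Those of Il1a, 4.37 to 6.29 against 1.74 to 2.78, did not overlap either. How many of all genes have ratios to Il1b that differ so between these cell types was not counted, so these values are a description.

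Cells were also compared by whether they held Il1b. In tumor monocyte/macrophage-like cells, Il1a was found in 43.7%, 28.7%, 40.4% and 35.8% of Il1b-positive cells of libraries 2 to 5 and in 5.06%, 5.81%, 10.5% and 9.88% of Il1b-negative cells. Tnf was found in 22.9% to 38.1% of the former and in 9.30% to 15.2% of the latter. In B-MF macrophages Il1a was found in 9.86% and 7.09% of Il1b-positive and in 4.41% and 3.78% of Il1b-negative cells. In Mo-MF macrophages, which held only 154 and 123 Il1b-positive cells, Il1a was found in at most 1.30% of these and in 3.28% and 3.23% of Il1b-negative cells. Il1rn was found in 20.2% and 20.6% of Il1b-positive and in 21.0% and 18.8% of Il1b-negative macrophages of B-MF, and in 37.7% and 39.8% against 31.5% and 32.6% of those of Mo-MF. Il1r2, whose Mo-MF counts lay mainly in neutrophil-like cells, was found in 17.5% and 14.6% of Il1b-positive against 1.02% and 0.877% of Il1b-negative macrophages of Mo-MF, and in 4.29% and 2.91% against 1.41% and 1.52% of those of B-MF. Both shares can move with the number of genes detected in a cell and with the mix of clusters in a class, and neither part was tested. In the tumor monocyte/macrophage-like clusters 2, 3, 5, 6 and 12, Il1b was found in 96.5%, 95.6%, 92.5%, 76.4% and 11.1% of cells. Il1a was found there in 50.6%, 51.9%, 10.5%, 15.1% and 0%. B-like tumor cells were 59.3% to 80% positive for Il1b in the 3 libraries with at least 10 of them. They were taken to lack the gene, which was not tested, so 1 count was not taken to mark a tumor cell as expressing it. The 10% of cells with the most counts held 86.8% and 88.2% of the Il1b counts of B-MF, and 98.7% and 99.8% of those of Mo-MF, where the share of positive cells was itself close to 10%.

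Over the 11 tumor clusters that held 10 or more cells of each library, the genes whose log2 level was most like a member were found among 6325 genes. Il1b was most like Slc15a3 (Pearson r = 0.99), Fam160b2 (0.98) and Nab1 (0.97). Il1rn was most like Ankrd37 (0.97), Rnf185 (0.96) and Tnf (0.96), and Tnf was most like Il1rn (0.96), Il1a (0.96) and A930007I19Rik (0.95). Il18 was most like F10 (0.97), Chmp4b (0.96) and Ppard (0.95). Each r is among the highest of 6325 genes over only 11 clusters, where high values can arise by selection. Fam160b2, Rnf185, A930007I19Rik and Ppard were low, with highest cluster means of 0.160, 0.228, 0.292 and 0.368. The points share libraries and the clusters were drawn from the same cells, so these values are a description.

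The ATAC-seq data ask whether chromatin at the cytokine genes is open in B-cell precursors before any contact with cancer. Per library, 65832 to 76530 peaks were listed in BM and 43407 to 50392 in spleen, so a peak is more likely to be listed in BM. Within 5 kb of the gene, Il1a, Il1b, Il1r2, Tnf, Il10 and Il18 had a peak in all 12 libraries, as did 62.0% of protein-coding genes. Il6 had one in 11 and Il1rn in 10, and 64.3% of these genes had one in at least 10. Peak heights of CSF1R+ and CSF1R- cells are given as values, and no test was made between them. Peak heights are fold enrichments given by the peak caller. For Il1b, a peak at chr2:129373272-129373706, outside the gene and centered at -2391 to -2291 bases from its start, was listed in every library, with 14.15 to 17.07 in BM CSF1R+, 15.8 to 19.19 in BM CSF1R-, 20.4 to 22.79 in spleen CSF1R+ and 18.2 to 19.65 in spleen CSF1R- cells. The CSF1R+ and CSF1R- ranges overlap in BM and do not in spleen, as at 16.1% of the sites within 5 kb of protein-coding genes that were listed in all libraries. The promoter of Il1b itself, 1 kb on either side of the start, held a peak in 2 of 12 libraries and that of Il1a in 0, as did 38.9% of protein-coding genes.

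Several promoters held peaks in 1 tissue and not in the other. That of Il1r2 had a peak in 6 of 6 BM and 0 of 6 spleen libraries, a pattern seen in 3.19% of 21924 protein-coding genes. Its fold enrichment was 19.07, 21.39 and 21.43 in BM CSF1R+ cells and 23.08, 24.14 and 21.17 in BM CSF1R- cells, centered at -951 to -828 bases from the GENCODE start. RefSeq places the start of Il1r2 further downstream, at a smaller exonic peak that was listed in all 12 libraries (3.72 to 6.89). The middle 200 bases of the BM peak, on the plus strand of GRCm38, are printed because this peak separated the tissues, and held none of the 4 motifs searched.

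Il1r2 upstream peak, chr1:40073086-40073285: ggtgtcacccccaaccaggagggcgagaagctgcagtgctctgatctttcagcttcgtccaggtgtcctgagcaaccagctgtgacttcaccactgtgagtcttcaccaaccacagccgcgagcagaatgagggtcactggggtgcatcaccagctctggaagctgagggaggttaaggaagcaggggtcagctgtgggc

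At Il1rn, a peak outside the gene at -1459 to -1319 bases was listed in 6 of 6 spleen libraries (6.14 to 11.9) and in 0 of 6 BM libraries, a pattern of 1.83% of the sites within 5 kb of protein-coding genes. A different peak at 8404 to 8429 bases, which covers an exon and lies at another RefSeq start of the gene, was listed in 4 of 6 BM libraries (5.27 to 8.91; 1 CSF1R+ and 3 CSF1R-) and in 0 of 6 spleen libraries, and 17.0% of sites were listed in at least 4 BM and no spleen libraries. The Il6 promoter had a peak in 5 of 6 BM and 0 of 6 spleen libraries, and 4.16% of protein-coding genes had one in at least 5 BM and no spleen libraries. At Il10 the promoter window held a peak in 0 of 6 BM and 5 of 6 spleen libraries, a pattern of 0.123% of genes, but this turned on the width of 1 peak: a peak centered at 1099 to 1297 bases was listed in all 12 libraries, with 3.30 to 6.14 in BM and 8.48 to 12.45 in spleen, and reached into the window where it was wide. The Tnf promoter had a peak in 5 of 6 BM and 6 of 6 spleen libraries, and that of Il18 in all 12, as in 47.9% of genes.

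**Figure D5:**
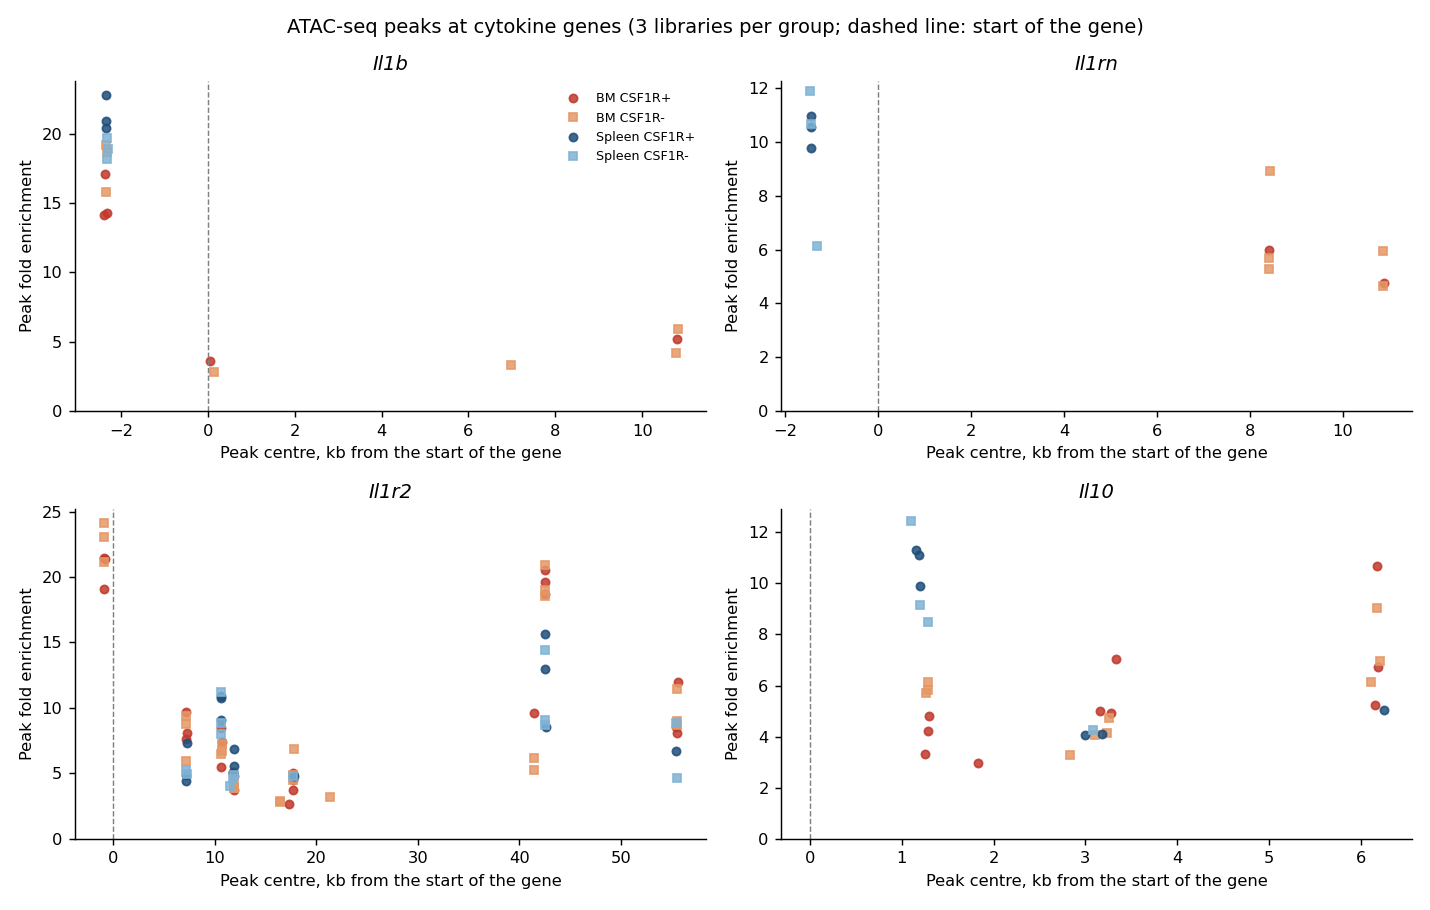
Fold enrichment of each ATAC-seq peak at Il1b, Il1rn, Il1r2 and Il10 against the distance of its center from the start of the gene in kb, for 3 libraries in each of 4 groups. The Il1r2 peak before the start (19.07 to 24.14) is drawn for BM only, the Il1rn peak before the start (6.14 to 11.9) for spleen only, and the Il1b peak before the start (14.15 to 22.79) for all groups.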

How the data were processed

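Both scRNA-seq tables held natural log values deposited per cell, made by the authors from 10x 3′ libraries with Cell Ranger on mm10 and corrected for sequencing depth with SCTransform in Seurat. Each value was turned into a corrected count as round(expm1(value)), and a gene counted as positive in a cell with at least 1 count. No raw counts were used here, and the sampling error of single cells enters the p-values only through the spread between library means. Every cell could be assigned to a library, the tumor libraries as a group only, the authors had filtered cells by detected genes, and no doublets were called here. The median corrected count per cell was 18350 to 19469 in the cultures and 7651 to 8266 in the tumor, and a share of cells carries counting error only in its 95% interval (exact binomial). The labels name a v2 kit and the study a later one.

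Cells were clustered without the 8 genes (2000 variable genes, 30 principal components, 20 neighbours, Leiden resolution 0.5, leidenalg 0.10.2 in Python 3.11.15) and named from marker lists. The rules of naming were set after the data were seen. Shares were also taken after thinning each cell to 4000 counts, which left out no cell. Library means were compared as log2(mean + 0.1) with limma 3.58.1 in R 4.3.3 over the 8633 genes whose average over the libraries reached 0.1, and p-values were adjusted by the Benjamini-Hochberg method at a threshold of 0.05. A fold on this scale understates the change of low genes. Macrophage cells alone were those outside clusters named neutrophil-, monocyte-, dendritic-, B- or T/NK-like, so unnamed and fibroblast-like cells remained in them. Il1a, Il10 and Il6 were below the filter and were taken from the fit without it. Il6, at 0 in 1 library, was fitted over all cells and in macrophage cells alone, with no other alternative.

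Beside the 8 members, the text names up to 3 genes past the threshold in each pathway role, those with the largest absolute log2 difference, and the 3 genes most like a member over the tumor clusters by Pearson correlation. The members and lists were chosen with earlier results of these data known. The ATAC-seq peaks were called by the authors per library with MACS2 after BWA alignment to mm10, and the deposited fold enrichment, a ratio of the peak to its local background, is quoted as the files give it. The deposited -log10 q was used only in an alternative minimum of 4. A peak was assigned to a gene within 5 kb and to a promoter within 1 kb of its GENCODE start, and peaks of a gene whose centers lay at most 400 bases apart in order were taken as 1 site. Alternatives in pseudocount, filter, scaling, cells, clustering and libraries are given in the closing section.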

Additional observations from a re-analysis of the deposited data

Results flagged for a closer look

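Among 48 sets of 4 tumor values (the mean and the positive share of each gene in all cells, neutrophil-like cells and monocyte/macrophage-like cells), 3 had 1 library far from the others by Dixon's criterion at the 95% level, and chance flags about 1 in 20 sets. In tumor library 3, 21.1% of all cells were positive for Il18, against 28.7% to 29.8% in the other 3 libraries. In tumor library 2, 0.0890% of neutrophil-like cells were positive for Il6, with a mean of 0.00089 counts, against 0 in the other 3. The value of Il6 rests on 1 cell. Library 3 was also the library with the largest share of neutrophil-like cells, 62.4%, and the part of that share in the Il18 value was not tested.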

How the results depend on the processing

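Of 337 alternative values, 256 kept their direction and their side of the threshold or, where no test was made, moved by less than 1 SD between libraries (counts by at most 1.5 times), 46 moved by more, 26 no longer passed, 5 newly passed and 4 changed direction. The 4 changes of direction were Il1b over all cells (-0.18) against macrophage cells alone (2.76), without neutrophil-like clusters (1.58) and by share of positive cells (0.81), and Il1r2 in macrophage cells without the filter (0.069). Both follow from the cells taken, except the share of cells, where the measure differs. Il1b over all cells newly passed with a pseudocount of 1 (-0.11) and with an intensity trend (-0.18). It also passed without B-MF replicate 1 (-0.31), without Mo-MF replicate 2 (-0.30) and with the replicate number as a block (-0.18, adjusted p = 0.0127 from limma). The block rests on replicate numbers whose deviations correlated at 0.126 over 8633 genes. With 2 pairs this cannot show whether libraries of the same number share an animal or a batch, which was not given. With the block 2238 genes were higher and 1670 lower in B-MF.

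Leaving out 1 library in turn gave 1103 to 3858 genes higher and 913 to 2933 lower in B-MF (1955 and 1458 with all), and 1048 to 3505 higher and 878 to 3115 lower in macrophage cells alone (1105 higher without Mo-MF replicate 1). Without B-MF replicate 2 the number higher was 3858, without B-MF replicate 1 the number lower was 2933, without Mo-MF replicate 1 the numbers were 1129 and 913, and without Mo-MF replicate 2 the number higher was 1103. The log2 differences then ranged from -0.31 to -0.038 for Il1b, from 0.26 to 0.37 for Il1a, from 0.36 to 0.46 for Il10 and from -0.31 to -0.18 for Il18, and in macrophage cells alone from 0.24 to 0.35 for Il1a (not passing at 0.24, 0.32 and 0.27 without B-MF replicate 1, Mo-MF replicate 1 or Mo-MF replicate 2), from 0.33 to 0.45 for Il10 (0.42 without B-MF replicate 2, and not passing in any of the 4 fits, with adjusted p = 0.0767 to 0.184) and from -0.25 to -0.13 for Il18 (not passing without Mo-MF replicate 1 or 2). A fit with 1 library in an arm assumes that it varies like the other group.

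By share of positive cells, 131 genes were higher and 181 lower, and Il1a (0.57), Tnf (0.85), Il10 (0.29) and Il18 (-0.17) no longer passed. A minimum mean of 0.5, which tested fewer genes, left 951 lower. With a pseudocount of 1, Il1a was 0.046 over all cells and 0.043 in macrophage cells and did not pass. Without the filter Il18 was -0.24 and, in macrophage cells, -0.19, and with a pseudocount of 0.01 it was -0.23 there, none of which passed. The further fits of macrophage cells alone were chosen after seeing the data.

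Thinning to 4000 counts lowered the share of Il1b-positive cells to 97.6% in tumor neutrophil-like and 87.3% in monocyte/macrophage-like cells, and to 10.8% and 1.11% in macrophage-like cells of B-MF and Mo-MF. At a clustering resolution of 1, monocyte/macrophage-like cells of the tumor were 88.0% positive, macrophage-like cells of B-MF 21.9%, and neutrophil-like cells held 59.5% of the Il1b and 67.8% of the Il1r2 counts of Mo-MF. With peaks counted in the promoter only, Il1a and Il1rn had 0 libraries with a peak, Il1b 2, Il6 5, Il10 5 and Il1r2 6. The cause of these changes was not tested where none is given.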
